A study of Mus musculus with 9 samples.

Results

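Cytosolic ribosomal proteins are the proteins of the ribosome that translates nuclear mRNAs. They were followed here as a gene set in mouse liver, through the mRNA level of each gene. The genes were chosen by name alone, as the symbols made of Rpl or Rps, a number and at most 1 of the letters a, l or x, together with Rplp0, Rplp1, Rplp2 and Rpsa. This took 83 of the 36119 genes in the table, lying on 19 chromosomes, and 81 of them had enough counts to be tested, of which 49 belong to the large and 32 to the small subunit. Rpl32l, Rpl6l and Rps4l met the name rule and are counted here, although they are typed as pseudogenes. Rpl32l and Rpl6l are processed pseudogenes, and Rps4l is a transcribed processed pseudogene.

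Liver RNA with a poly(A) tail was sequenced from 9 male wild-type C57BL/6J mice aged 6 to 8 weeks, 3 in each of 3 groups, with 1 library a mouse. The Cont mice received corn oil by gavage. The OA mice received oleanolic acid by gavage, a plant triterpenoid that produces cholestatic liver injury in mice, at 295.5 mg/kg in the sample labels and 295.92 mg/kg in the protocol. The ZnPP+OA mice also received zinc protoporphyrin, an inhibitor of heme oxygenase-1, at 20 mg/kg into the peritoneum 2 h before OA. Groups without ZnPP received saline by that route, and all mice were treated for 4 days and fasted for 12 h before they were killed. No group received ZnPP alone, so an effect of ZnPP by itself cannot be told apart from an effect on the response to OA.

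A ribosome needs its proteins and ribosomal RNAs in matched amounts, and cells therefore adjust the ribosomal protein genes largely together. Most of these mRNAs begin with a C followed by a run of pyrimidines, the 5′ terminal oligopyrimidine tract, through which mTORC1 and Larp1 control their translation and stability. A hepatocyte spends much of its synthesis on secreted proteins, and growth or repair of the liver calls for more ribosomes.

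Library totals ran from 32639438 to 85060187 counts. Transcripts of chromosome MT took 43.2% to 74.7% of the counts in Cont, against 13.7% to 38.2% in OA and 59.0% to 68.7% with ZnPP+OA. The counts left for other genes, once 7 nuclear copies of mitochondrial DNA on chromosome 1 were set aside too, ran from 4946748 in Cont 2 to 70295836 in OA 3. Of these, 118472 counts in Cont 2 and 2535634 in OA 3, the lowest and highest numbers, fell on ribosomal protein genes. Levels are given as CPM, the counts of a gene relative to the TMM-scaled total of its library, and the scaling factors ran from 0.265 in Cont 2 to 2.53 in OA 3. The 8 hepatocyte markers, albumin among them, were all detected and summed to 12237 CPM or more in every library. Adjusted p values come from edgeR's quasi-likelihood test with Benjamini-Hochberg adjustment over 18895 genes, and a gene was called at an adjusted p under 0.05.

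The start of the mRNA is shown first, because the tract at the 5′ end is the feature these mRNAs are best known to share. RefSeq start windows (GRCm38.p6) were matched by symbol for 61 of the 83 genes. The longest unbroken run of C and T within 5 bases of the listed start reached at least 8 bases in 24 of these 61 genes (39.3%), against 11% of 27025 genes with a window and 7 of 68 mitochondrial ribosomal protein genes (10.3%). Below, 5 genes with such a run and 5 genes without one are given from 15 bases before the listed start, with the run in capitals. The second 5 are genes called in a comparison, and Rpl7a among the first 5 was called too.
Rpl7a, chr2:26910792-26910821, + strand: aTTCCCTCTTCTTTCTTTCTCCagcagccg
Rpl28, chr7:4792950-4792979, + strand: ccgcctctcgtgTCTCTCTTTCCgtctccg
Rplp2, chr7:141447636-141447665, + strand: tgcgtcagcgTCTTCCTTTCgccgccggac
Rps6, chr4:86857353-86857382, - strand: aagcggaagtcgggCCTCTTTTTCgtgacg
Rps15a, chr7:118116133-118116162, - strand: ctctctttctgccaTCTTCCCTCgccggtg
Rpl23, chr11:97782425-97782454, - strand: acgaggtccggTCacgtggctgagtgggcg
Rpl27, chr11:101442230-101442259, + strand: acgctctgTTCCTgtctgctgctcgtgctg
Rpl39, chrX:37085208-37085237, - strand: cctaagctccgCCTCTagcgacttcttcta
Rps12, chr10:23787195-23787224, - strand: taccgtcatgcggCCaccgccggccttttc
Rps23, chr13:90923107-90923136, + strand: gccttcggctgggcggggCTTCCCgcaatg
The run sat on the listed start in the first 5 windows, and no run of 8 or more lay there in the last 5. This concerns the listed start only, which need not be the start used in liver. The genes with a run had a median log2 fold change in OA against Cont of 0.70 (24 genes tested), and those without one had 0.80 (35 genes tested), a difference that was not tested. In ZnPP+OA against OA the medians were -0.79 and -0.84.

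As a set, the ribosomal protein mRNAs took a larger part of the nuclear transcripts in OA than in either other group. Their counts made up 1.27% ± 0.453 (SD, n = 3) of all counts outside chromosome MT in Cont, against 3.46% ± 0.758 in OA and 1.21% ± 0.348 with ZnPP+OA. By library the shares were 1.47%, 0.755% and 1.59% in Cont, 2.70%, 4.22% and 3.45% in OA, and 1.38%, 0.806% and 1.44% in ZnPP+OA. Every OA library lay above all 6 others, and the Cont and ZnPP+OA libraries overlapped. With the 7 chromosome 1 copies also taken out of the denominator, the shares were 2.07% ± 0.299 in Cont, against 3.77% ± 0.682 in OA and 2.06% ± 0.396 with ZnPP+OA. The lowest OA library then stood at 3.18% and the highest of the other 6 at 2.39%. Cont 2 and ZnPP+OA 2, which had the lowest shares of the first kind, also had the largest mitochondrial shares, 74.7% and 68.7%.

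**Figure D1:**
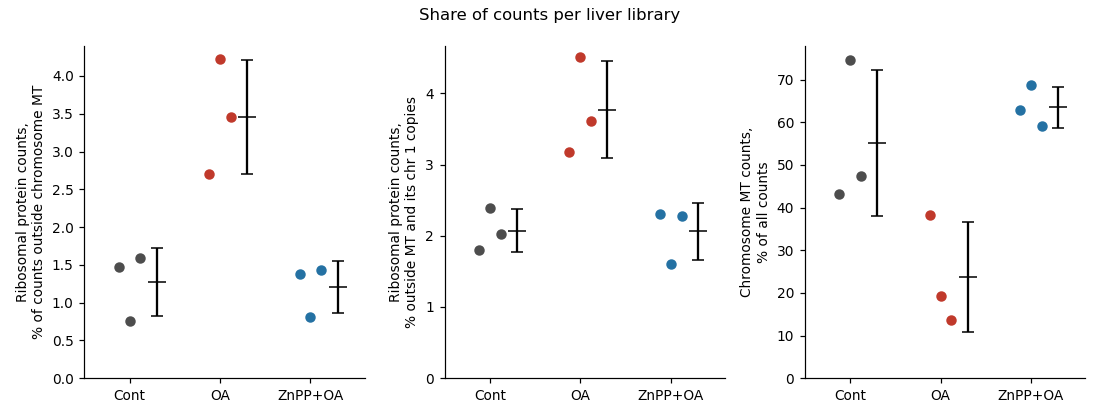
Share of counts per library, with 1 point a library and the mean and SD of the 3 libraries beside them. The left and middle panels give the ribosomal protein genes as a percent of the counts outside chromosome MT and outside MT and its chromosome 1 copies, and the right panel gives chromosome MT as a percent of all counts. In both panels on ribosomal protein genes the 3 OA libraries lie above the other 6, and in the right panel OA has the lowest mitochondrial shares.

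The same shift was seen gene by gene after scaling. The median ribosomal protein gene had 80.9, 74.6 and 72.3 CPM in the Cont libraries, 100.8, 161.0 and 129.9 CPM in the OA libraries and 81.7, 51.9 and 79.8 CPM in the ZnPP+OA libraries. Of the 79 genes with at least 10 counts in every library, 68, 78 and 77 lay above their own Cont mean in OA 1, OA 2 and OA 3. In ZnPP+OA 1, 2 and 3 the numbers were 33, 5 and 47. OA 1 was thus the lowest of the OA livers and ZnPP+OA 2 stood below the other ZnPP+OA livers for nearly the whole set.

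**Figure D2:**
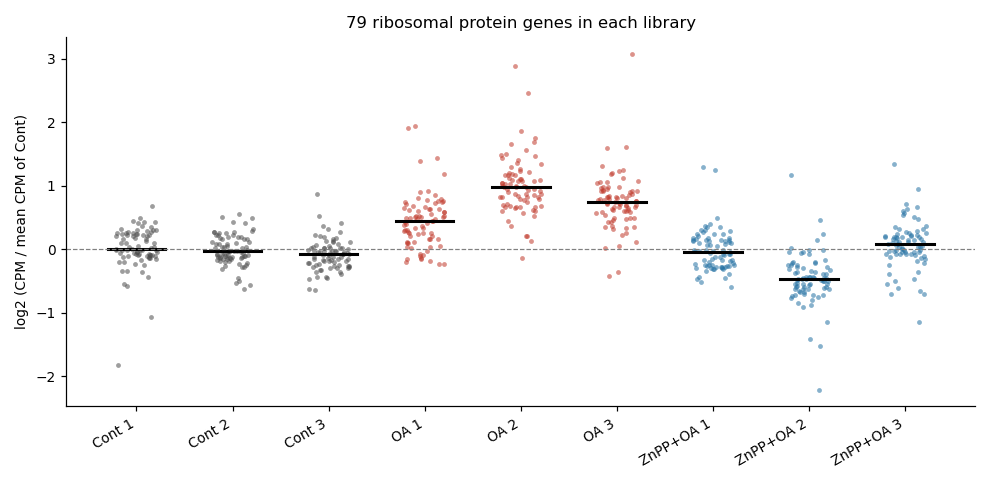
The 79 ribosomal protein genes with at least 10 counts in every library, each drawn as a point at the log2 ratio of its CPM to its own mean in Cont, with the median of each library as a bar. The median ratio is 0.44, 0.98 and 0.75 in the 3 OA libraries and -0.05, -0.47 and 0.08 in the 3 ZnPP+OA libraries.

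The comparison of OA with Cont asks what OA changed in the liver. In OA 6 ribosomal protein mRNAs rose and none fell: Rpl17, Rpl7a, Rps12, Rpl39, Rpl27 and Rpl23. Over all genes tested, 2.4% were called higher in OA. The fitted log2 fold change was above 0 for 78 of the 81 genes, with a median of 0.72 and a middle range from 0.51 to 0.92, beside a median of 0.09 over all genes. For 52 of the 81 genes all 3 OA livers lay above all 3 Cont livers, where 18.5% of all genes did so. At an unadjusted p under 0.05, 42 of 81 were higher and none was lower, where 11.6% of all genes were higher. DESeq2 called 13 higher, and 4.36% of all genes. The medians of the large and small subunit genes were 0.71 and 0.73.

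Rpl17, a large subunit protein that lines the exit tunnel, had 20.7, 20.1 and 25.0 CPM in Cont, against 84.6, 162.7 and 66.7 CPM in OA and 54.1, 49.6 and 34.6 CPM with ZnPP+OA. The 3 groups did not overlap, with OA highest and Cont lowest, and the fitted change from Cont to OA was 2.25 ± 0.37 (SE) in log2 units at an adjusted p of 0.00491. Rpl7a, a protein of the large subunit, had 3.11, 4.52 and 12.0 CPM in Cont and 24.6, 19.5 and 55.2 CPM in OA. The fitted change was 2.33 ± 0.54 (SE) in log2 units at an adjusted p of 0.0272, and the ZnPP+OA livers, at 15.6, 7.70 and 9.68 CPM, overlapped with Cont. Rps12, of the small subunit, had 25.3, 24.1 and 31.2 CPM in Cont and 72.7, 149.0 and 81.7 CPM in OA. The fitted change was 1.91 ± 0.46 (SE) in log2 units at an adjusted p of 0.0315. These 3 calls are uncertain, because pseudogene rows named for these genes hold many counts and how reads were shared is not known. The calls were lost once those counts were added. That loss does not show how reads were shared, since adding rows that change less than the gene lowers its fold change anyway.

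Rpl39, the small protein at the exit tunnel, was at 7.59, 7.02 and 11.05 CPM in Cont and 22.3, 27.1 and 21.2 CPM in OA, which is 1.46 ± 0.37 (SE) in log2 units at an adjusted p of 0.0412. Rpl27, also of the large subunit, was at 38.5, 50.4 and 43.6 CPM in Cont and 82.2, 100.3 and 91.5 CPM in OA, which is 1.05 ± 0.28 (SE) in log2 units at an adjusted p of 0.0467. Rpl23, which lies at the face between the subunits and can bind Mdm2, was at 63.1, 74.0 and 66.9 CPM in Cont and 114.6, 166.9 and 155.1 CPM in OA, which is 1.10 ± 0.29 (SE) in log2 units at an adjusted p of 0.0496. In each of these 3 genes every OA liver was above every Cont liver. At the other end, Rpl36 had 74.2, 103.5 and 70.05 CPM in Cont and 101.5, 74.7 and 61.4 CPM in OA, groups that overlap, and a fitted change of -0.06 ± 0.31 (SE) in log2 units at an adjusted p of 0.938. Rpl28 was close to it at 0.09 (SE 0.29). Rpl32l and Rpl3l, the other genes with a fitted change below 0, had at most 58 and 27 counts in a library.

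The number called rested on single libraries, while the shift of the set did not. It was 1 without Cont 1, Cont 2 or OA 3, 2 without OA 2 and 3 without ZnPP+OA 1. Of all genes, 1.63%, 1.32%, 0.587%, 0.496% and 1.49% were called higher in these refits, in that order. The median of the set stayed between 0.60 and 0.89 whichever library was left out. Scaling to library totals alone moved the median of all genes to 1.48 and that of the ribosomal protein genes to 2.17, a distance of 0.69 in place of 0.63, and 49 were then called higher, with 15% of all genes. With the genes of chromosome MT left out before scaling, 5 were called higher, with 2.47% of all genes, and the median was 0.70.

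**Figure D3:**
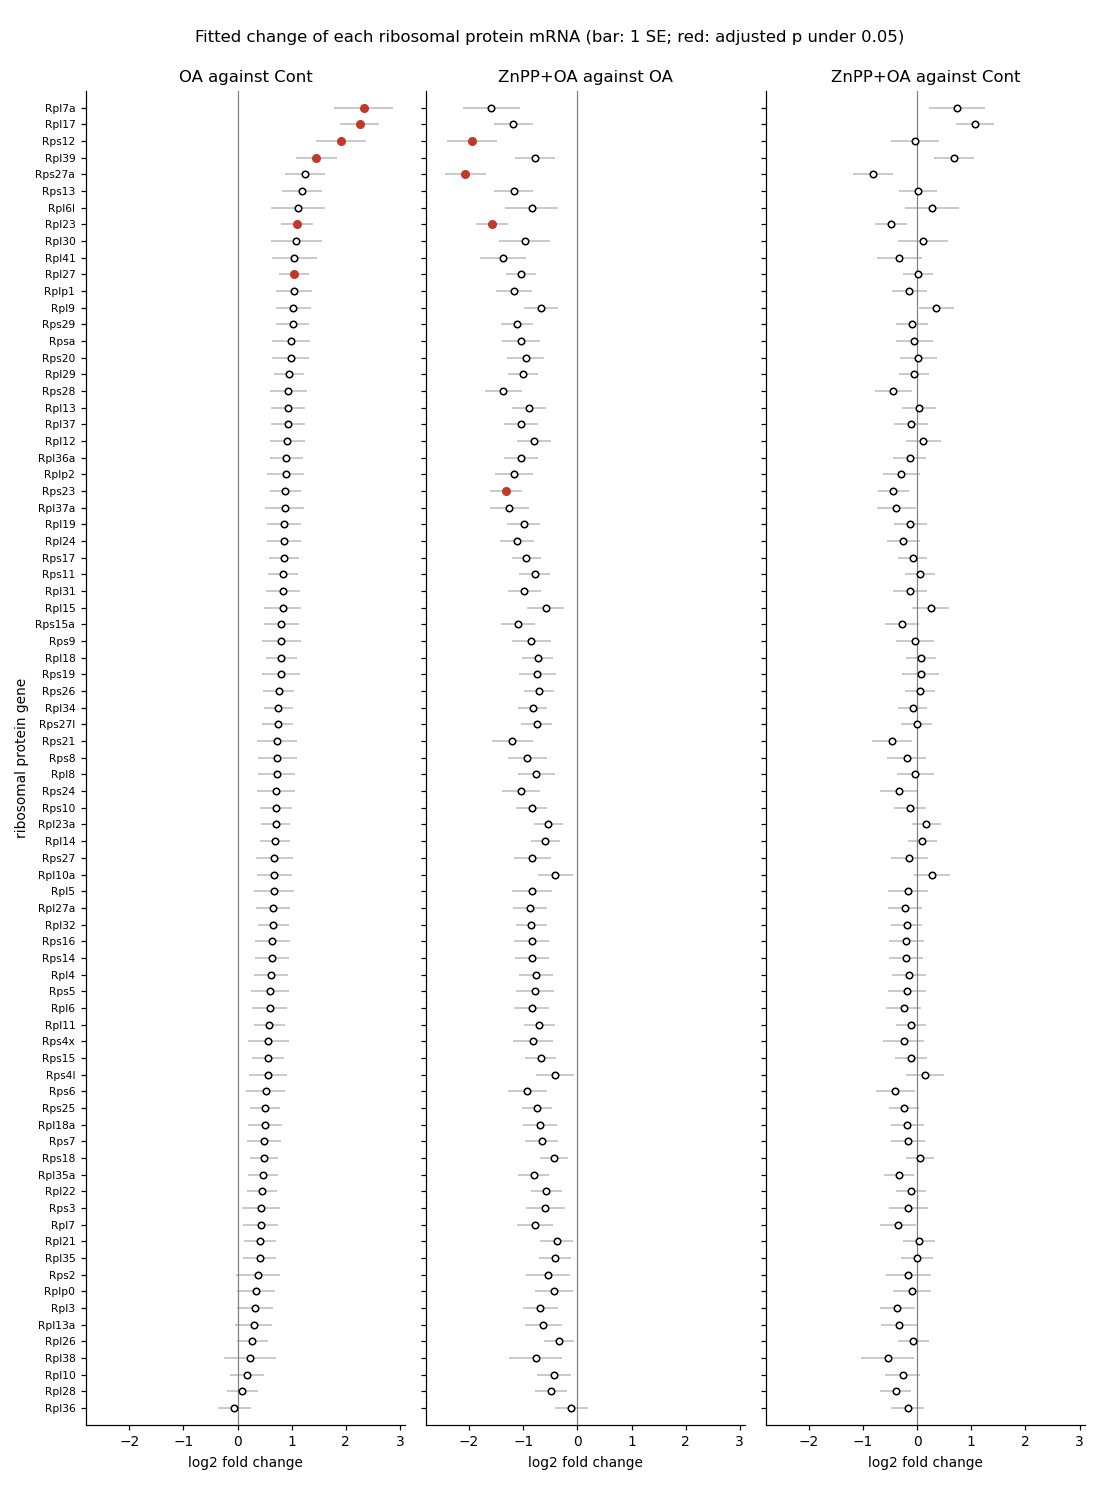
Fitted log2 fold change of 79 ribosomal protein genes in the 3 comparisons, 1 gene a row ordered by OA against Cont, with bars of 1 SE and red points for an adjusted p under 0.05; Rpl3l and Rpl32l, with few counts, are not drawn. The points lie right of 0 in OA against Cont for all but Rpl36 (which is at 1.45 when library totals alone are used), left of 0 in ZnPP+OA against OA, and around 0 in ZnPP+OA against Cont.

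The comparison of ZnPP+OA with OA asks what the inhibitor changed in livers given OA. In ZnPP+OA 4 ribosomal protein mRNAs fell and none rose: Rps27a, Rpl23, Rps23 and Rps12. Over all genes, 1.26% were called lower. The fitted log2 fold change was below 0 for all genes tested but Rpl32l, with a median of -0.83 beside -0.07 over all genes. For 58 of the 81 genes every ZnPP+OA liver lay below every OA liver, where 19.2% of all genes did so. At an unadjusted p under 0.05, 56 of 81 were lower and none was higher, where 10.2% of all genes were lower. DESeq2 called 20 lower, and 3.32% of all genes. This comparison uses the same 3 OA livers as the one above, so its values are not independent of it.

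Rps27a, which encodes ubiquitin fused to a small subunit protein, had 87.9, 178.0 and 126.4 CPM in OA and 36.7, 20.6 and 36.2 CPM in ZnPP+OA. The fitted change was -2.07 ± 0.38 (SE) in log2 units at an adjusted p of 0.0156, and the ZnPP+OA livers were also below the Cont livers, which had 38.0, 73.7 and 53.9 CPM. With its pseudogene rows added those groups overlapped, at 78.2, 95.7 and 64.4 CPM in Cont and 73.3, 43.0 and 79.0 CPM in ZnPP+OA. Rpl23 fell to 57.6, 36.9 and 52.0 CPM, which is -1.58 ± 0.30 (SE) in log2 units at an adjusted p of 0.0168. Rps23, a small subunit protein at the decoding centre, had 105.6, 161.0 and 149.7 CPM in OA and 66.9, 51.9 and 47.9 CPM in ZnPP+OA, which is -1.32 ± 0.29 (SE) in log2 units at an adjusted p of 0.0304. Rps12 had 35.5, 9.39 and 33.6 CPM in ZnPP+OA, which is -1.95 ± 0.46 (SE) in log2 units at an adjusted p of 0.0409. The next gene by p, Rps28, missed the threshold at -1.37 (SE 0.34, adjusted p = 0.0512). With pseudogene counts added, the calls on Rps27a (-1.17, adjusted p = 0.103), Rps23 (-1.11, adjusted p = 0.0602) and Rps12 (-1.17, adjusted p = 0.0745) were lost. No ribosomal protein gene was called once any of OA 2, OA 3, ZnPP+OA 2 and ZnPP+OA 3 had been left out. Of all genes, 0.0644%, 0.109%, 0.0291% and 0.172% were called lower in these refits, so calls were lost over the whole genome. Without Cont 1, 9 ribosomal protein genes were called beside 2.7% of all genes lower, and without OA 1, 7 beside 1.47%. The median stayed between -1.02 and -0.71.

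Between ZnPP+OA and Cont, which asks how far livers given both agents were from those given vehicle, no ribosomal protein gene was called by edgeR, by DESeq2 or by limma on FPKM, and edgeR called 0% of all genes. At an unadjusted p under 0.05, Rpl17 was higher and Rps27a and Rpl3l were lower, 3 of 81 genes beside 8.16% of all genes, and the smallest adjusted p of the set was 0.578. The median log2 fold change was -0.13 beside -0.02 over all genes. The groups did not overlap for 2 genes that were higher (Rpl17 and Rpl9) and 4 that were lower (Rps27a, Rpl23, Rps23 and Rpl28), where 10.3% of all genes showed no overlap. Rpl17 differed by 1.07 (SE 0.36), Rps27a by -0.82 (SE 0.37) and Rpl9, a large subunit protein, by 0.36 (SE 0.32). With pseudogene counts added, Rpl17 differed by 0.21 (SE 0.28) and Rps27a by -0.29 (SE 0.35). Next by p among the higher genes were Rpl39 at 0.68 (SE 0.37), Rpl7a at 0.74 (SE 0.52) and Rpl10a at 0.28 (SE 0.33), each with groups that overlap. Without ZnPP+OA 2 the median was 0.02.

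**Figure D4:**
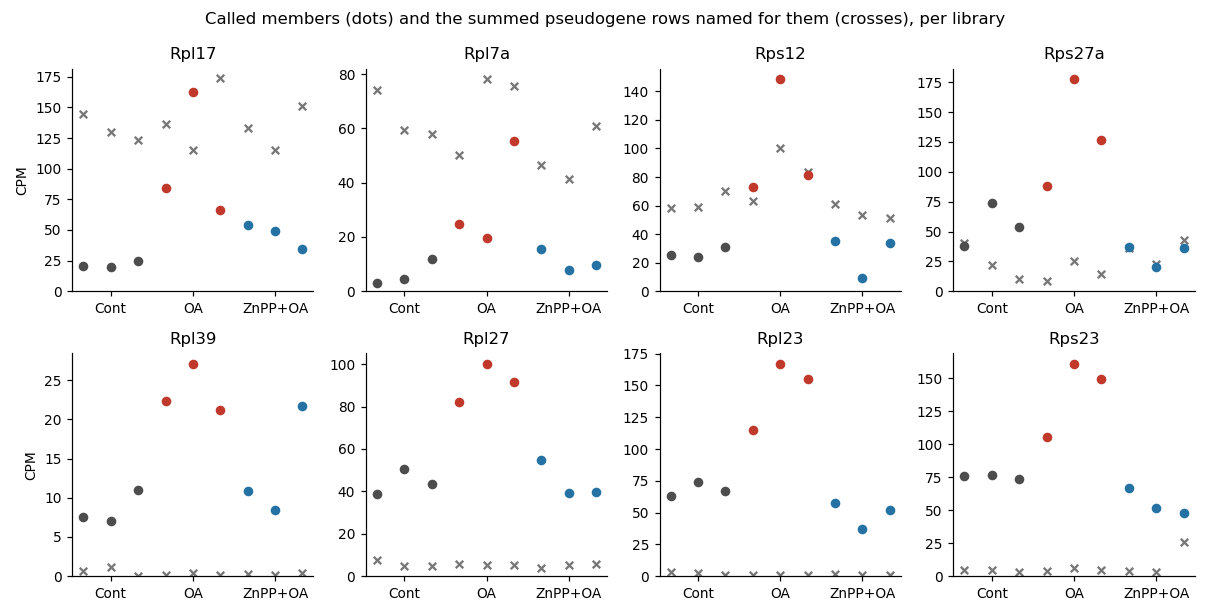
CPM of the 8 ribosomal protein genes called in a comparison (dots, 1 a library, grey for Cont, red for OA and blue for ZnPP+OA), with the summed CPM of the pseudogene rows named for each gene (crosses). Each axis starts at 0. OA has the 3 highest dots for every gene but Rpl39, where ZnPP+OA 3 at 21.7 CPM lies among them, and the pseudogene rows of Rpl17 and Rpl7a hold more counts over the 9 libraries than the genes do (180.0 and 234.2 per 100), those of Rps12 nearly as many (99.2 per 100).

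To ask whether single proteins moved apart from the rest, each library was also scaled by its summed ribosomal protein counts. This scaling holds the set near 0 by construction and displaces the other genes. The shares of all genes given below are therefore no measure of how closely the set moved together. In OA against Cont only Rpl17 was called, higher by 1.55 against the sum (adjusted p = 0.0395), where 5.61% of all genes were called in either direction, and 3 of 81 had an unadjusted p under 0.05, where 23.2% of all genes did. Between ZnPP+OA and OA none was called, where 4.31% of all genes were, and 3 of 81 had an unadjusted p under 0.05, where 23.5% of all genes did. The nearest was Rps27a, at -1.25 against the sum (adjusted p = 0.0636). The contrast of ZnPP+OA with Cont gave none either, as for 0% of all genes, and 2 of 81 had an unadjusted p under 0.05, where 6.34% of all genes did. The median of the set against its own sum was 0.05, -0.04 and 0.01 in the 3 comparisons, values near 0 because of the scaling. Over all genes it was -0.55, 0.72 and 0.13. DESeq2 was not run on this scale. The call on Rpl17 was lost without Cont 1, Cont 2, OA 1, OA 2, OA 3 or ZnPP+OA 1, and without Cont 3 Rpl7a was called as well. Rps27a was called without Cont 1.

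The 3 calls with the smallest p in OA against Cont were of genes with many pseudogene counts. Ribosomal protein genes have left many near-identical processed copies in the genome, and the table holds 256 rows of such pseudogenes, 253 of them named for a gene of the set. Whether a read was given to the gene or to a copy depends on the alignment, so counts can be split between a gene and its copies. Pseudogene rows held 9.24% to 12.0% as many counts as the ribosomal protein genes in Cont, against 5.84% to 7.05% in OA and 9.38% to 10.4% with ZnPP+OA. Per 100 counts of the gene, the pseudogene rows held 234.2 counts for Rpl7a, 180.0 for Rpl17, 99.2 for Rps12 and 19.1 for Rps27a. Some genes that were not called also had high values, with 95.4 for Rpl21, 36.5 for Rps10 and 28.7 for Rpl14. Rpl21 had a fitted change of 0.42 in OA against Cont (edgeR adjusted p = 0.454).

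The pseudogene rows of Rpl17 averaged 132.7 CPM in Cont, against 141.9 in OA and 133.4 with ZnPP+OA, while the Rpl17 row averaged 21.9 ± 2.68, 104.7 ± 51.1 and 46.1 ± 10.2 CPM (SD, n = 3). With the pseudogene counts added to the gene, Rpl17 had a log2 fold change in OA against Cont of 0.67 (SE 0.28, adjusted p = 0.181), Rpl7a 0.52 (adjusted p = 0.339) and Rps12 1.04 (adjusted p = 0.0812). Rpl39, with few pseudogene counts, was the 1 gene still called, at 1.37 (adjusted p = 0.0474), and Rpl23 (1.06, adjusted p = 0.0568) and Rpl27 (0.96, adjusted p = 0.0599) fell just short. In ZnPP+OA against OA, Rpl23 was the 1 gene still called, at -1.55 (adjusted p = 0.0174). The set kept its shift, with medians of 0.67 and -0.80, and no gene was called against the ribosomal protein sum. These sums were made after the data had been seen. Where the pseudogene rows changed less than the gene, adding them made its fold change smaller, however the reads had been shared.

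**Figure D5:**
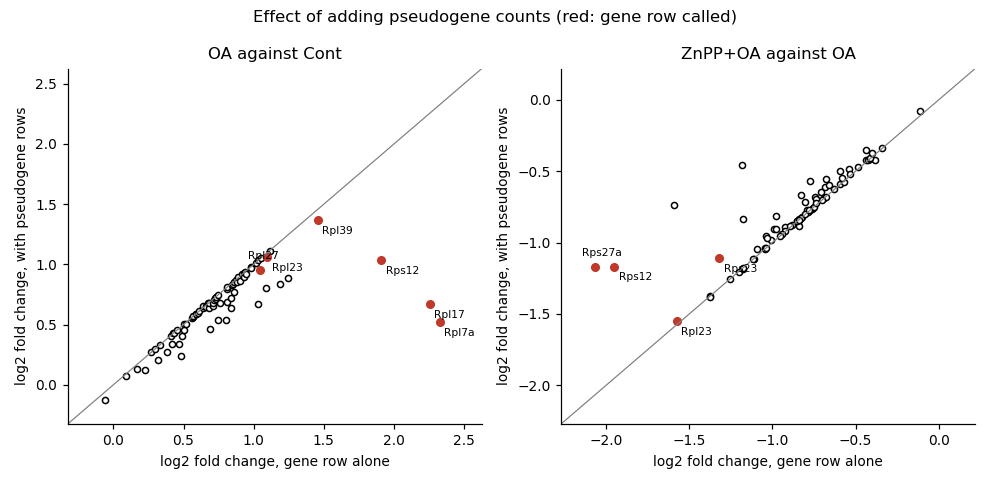
Log2 fold change of 79 ribosomal protein genes from the gene row alone (horizontal) and with the pseudogene rows named for the gene added to it (vertical), in 1 panel for each comparison with OA, with genes called from their own row in red and a line of equal values. Most genes lie on the line, while Rpl17, Rpl7a and Rps12 drop to 0.67, 0.52 and 1.04 in OA against Cont.

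Among genes of known special role, the stalk proteins, which recruit the elongation factors, had unlike fitted changes. Rplp1 had 120.1, 112.9 and 139.0 CPM in Cont, against 193.1, 334.4 and 234.3 CPM in OA and 111.9, 80.6 and 144.2 CPM with ZnPP+OA. Its log2 fold change was 1.03 in OA against Cont (adjusted p = 0.0915) and -1.18 in ZnPP+OA against OA (adjusted p = 0.0828), and in both the groups did not overlap. Rplp2 had values of 0.89 (adjusted p = 0.157) and -1.18 (adjusted p = 0.0955). Rplp0, the base of the stalk and a common reference gene in quantitative PCR, had 338.6, 257.8 and 202.1 CPM in Cont and 239.6, 423.5 and 343.6 CPM in OA. Its groups overlapped, at 0.33 (SE 0.35, adjusted p = 0.632), and whether it differed from Rplp1 was not tested.

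Rps6, the substrate of the S6 kinases below mTORC1, had 262.8, 159.2 and 135.5 CPM in Cont and 182.5, 320.7 and 296.7 CPM in OA, a log2 fold change of 0.52 (adjusted p = 0.436) between overlapping groups. Against OA, ZnPP+OA stood at -0.92 (adjusted p = 0.193), with no overlap. Rpsa, also known as the laminin receptor precursor, had 313.6, 313.5 and 377.7 CPM in Cont, against 501.3, 862.6 and 623.5 CPM in OA and 330.0, 247.0 and 391.7 CPM with ZnPP+OA. Its OA livers lay above all others, at 0.98 (adjusted p = 0.120) and -1.04 (adjusted p = 0.131). Rpl5 and Rpl11 join the 5S rRNA and, when ribosome assembly fails, bind Mdm2. They had log2 fold changes of 0.68 (adjusted p = 0.309) and 0.59 (adjusted p = 0.246) in OA against Cont. None of these 4 genes passed the threshold.

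Levels per length ran over a wide range. By the authors' FPKM averaged over the 9 libraries, Rplp1 was highest at 477.6, followed by Rps15 at 357.9, Rpl19 at 284.1, Rpl13a at 270.4 and Rpl36 at 232.0. On the scale of CPM, Rpl19, a large subunit protein, had 174.7, 193.3 and 139.5 in Cont livers and 280.1, 337.7 and 302.9 in OA livers, without overlap, a fitted change of 0.86 (SE 0.31, adjusted p = 0.125). Rps15 of the small subunit also did not overlap, with 139.3, 162.0 and 153.3 CPM in Cont and 206.2, 272.6 and 193.9 CPM in OA (0.57, adjusted p = 0.284). Rpl13a, at times used as a reference gene, had 528.4, 436.4 and 359.4 CPM in Cont and 453.0, 699.1 and 476.8 CPM in OA, groups that overlap (0.30, adjusted p = 0.672). The lowest gene by FPKM with at least 10 counts in every library was Rps15a at 8.54, with fitted changes of 0.81 in OA against Cont (adjusted p = 0.154) and -1.09 in ZnPP+OA against OA (adjusted p = 0.0890). Below it lay Rpl32l at 0.916, then Rpl39l, Rpl3l at 0.0749 and Rpl10l at 0.00351. The row lengths implied by counts and FPKM ran from 411 bases for Rpl36 to 6735 bases for Rps15a, so the order by FPKM depends on the length given to a row.

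The paralogs of restricted expression were near the floor, apart from Rps27l and Rps4l. Rpl3l, the paralog of heart and skeletal muscle, had 0, 10 and 27 counts in Cont, 17, 13 and 8 in OA and 0 in each ZnPP+OA library. Rpl39l, known from the testis, had 14, 29 and 11 counts in the OA libraries and 0 in the other 6, and Rpl10l, also known from the testis, had 2 counts in ZnPP+OA 1 and 0 elsewhere. Neither was tested. The OA libraries were the deepest outside chromosome MT, so a count of 0 in the others does not show absence. Rps27l, a paralog of Rps27 that p53 can induce, had 20.1, 19.3 and 21.5 CPM in Cont and 28.9, 37.3 and 35.9 CPM in OA, without overlap (0.74, adjusted p = 0.150), and was at 19.7, 14.9 and 26.1 CPM in ZnPP+OA. Rps4l, typed as a transcribed processed pseudogene, stood at 0.56 (adjusted p = 0.385).

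The 7 cytosolic ribosomal proteins whose symbols fall outside the name rule behaved in the same direction. In OA against Cont all 7 lay above 0 with a median of 0.59, and edgeR called none. At an unadjusted p under 0.05, 2 were higher, and DESeq2 called 1 higher, beside 11.6% and 4.36% of all genes. All 7 lay below 0 in ZnPP+OA against OA with a median of -0.98, and edgeR called none. There 4 were lower at an unadjusted p under 0.05, and DESeq2 called 2 lower, beside 10.2% and 3.32% of all genes. Fau, which encodes a ubiquitin-like protein fused to a small subunit protein, had 0.79 (adjusted p = 0.198) and -1.01 (adjusted p = 0.137). Rpl22l1, a paralog of Rpl22, had 1.13 (adjusted p = 0.0652) and -1.21 (adjusted p = 0.0687).

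Other mRNAs that carry a 5′ oligopyrimidine tract, such as those of elongation factors, gave smaller medians in the same directions. Of 16 tested, 13 lay above 0 in OA against Cont, with a median of 0.28 and none called by edgeR. At an unadjusted p under 0.05, 3 were higher, and DESeq2 called 2 higher, beside 11.6% and 4.36% of all genes. The median of ZnPP+OA against OA was -0.43, with none called by edgeR. There 4 were lower at an unadjusted p under 0.05, and DESeq2 called 1 lower, beside 10.2% and 3.32% of all genes. Tpt1, the translationally controlled tumour protein, had 1.02 (adjusted p = 0.118) and -1.27 (adjusted p = 0.0815), and Nap1l1, a histone chaperone, had 0.99 (adjusted p = 0.0753) and -0.88 (adjusted p = 0.135).

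The machinery that makes ribosomes had medians nearer to 0 than the ribosomal protein genes did. Of 36 genes of rRNA processing and assembly, Nhp2, a protein of the H/ACA ribonucleoproteins that guide pseudouridylation, rose in OA (1.93, adjusted p = 0.0102) and fell in ZnPP+OA against OA (-1.76, adjusted p = 0.0217), and edgeR called no other, while DESeq2 called 2 higher in OA and 1 lower in ZnPP+OA against OA. The medians of this list were 0.38 and -0.16, and 25 of the 36 lay above 0 in OA against Cont. At an unadjusted p under 0.05, 8 were higher and 1 lower in OA, where 11.6% of all genes were higher. In ZnPP+OA against OA, 0 were higher and 3 lower, where 10.2% of all genes were lower. Of 15 genes of RNA polymerase I and its factors edgeR called none in either comparison, with medians of 0.11 and 0.16. At an unadjusted p under 0.05, 2 were higher and 1 lower in OA against Cont, and 0 in ZnPP+OA against OA. DESeq2 called 1 lower in the first and 0 in the second. Over all genes in OA against Cont, edgeR called 2.4% higher, and DESeq2 called 4.36% higher and 8.48% lower. In ZnPP+OA against OA, edgeR and DESeq2 called 1.26% and 3.32% of all genes lower. Among 16 genes of mTORC1 and of the control of these mRNAs, Eif4ebp1, a repressor of cap-dependent translation that mTORC1 inactivates, rose in OA (1.47, adjusted p = 0.0332). Between ZnPP+OA and OA it stood at -1.15 (adjusted p = 0.106). Rps6kb2, an S6 kinase, stood at -1.54 (adjusted p = 0.0515) and 1.49 (adjusted p = 0.0812). The medians of these 16 genes were -0.12 and 0.05, and 7 lay above 0 in OA against Cont. At an unadjusted p under 0.05, 2 were higher and 2 lower in each comparison. DESeq2 called 1 higher and 1 lower in OA against Cont. In ZnPP+OA against OA it called 2 higher and 0 lower, where 5.29% of all genes were called higher.

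Other large complexes give a scale for the shift. Of 77 mitochondrial ribosomal protein genes, which are encoded in the nucleus, 61 lay above 0 in OA against Cont, with a median of 0.31 and 1 called (Mrpl33, 1.37, adjusted p = 0.0389), and in ZnPP+OA against OA the median was -0.36. Of 38 proteasome subunits 30 lay above 0, with a median of 0.43 and 2 called, Psmd8 (1.83, adjusted p = 0.0162) and Psmd10 (1.66, adjusted p = 0.0353), and in ZnPP+OA against OA the median was -0.42. Over all genes, 2.4% were called higher in OA against Cont. The cytosolic ribosomal protein genes had medians of 0.72 and -0.83, and the differences between these sets were not tested.

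Marker genes of several cell types also differed between the groups. Kupffer cell markers summed to 163.7 to 372.1 CPM in Cont, against 775.0 to 1098 in OA and 266.5 to 409.7 with ZnPP+OA, and 6 of 9 rose in OA, led by C1qa (2.94, adjusted p = 0.00425). Monocyte markers summed to 53.8 to 96.6, 278.9 to 409.1 and 68.1 to 119.6 CPM, and 4 of 6 rose. Over all 18895 genes tested, edgeR called 454 higher in OA (2.4%) and 530 lower. Neutrophil markers summed to 4.14 to 17.999, 20.6 to 68.1 and 12.1 to 17.1 CPM, with 1 of 6 called. Cholangiocyte markers summed to 44.8 to 97.5, 164.0 to 286.1 and 133.3 to 166.6 CPM, with 1 of 5 called. Unlike the ribosomal protein set, the cholangiocyte sums with ZnPP+OA stayed above all Cont sums. Against OA, 2 of the 5 lay above 0 with ZnPP+OA, and against Cont all 5 did. Hepatocyte markers summed to 18423 to 58581, 12237 to 20169 and 16017 to 20840 CPM, and edgeR called 2 of 8 lower in OA (Apoa2 at -1.68 and Ttr at -1.82). All 8 lay below 0 in OA against Cont, with a median of -1.12. At an unadjusted p under 0.05, 4 of these 8 were lower, and DESeq2 called 6 lower, where it called 8.48% of all genes lower. Cell cycle genes summed to 14.7 to 23.0, 29.9 to 52.2 and 16.2 to 23.95 CPM, with none of 5 called by edgeR. In OA 3 were higher at an unadjusted p under 0.05, and DESeq2 called 1 higher, beside 11.6% and 4.36% of all genes. No marker of these lists was at 0 in all libraries. Their part in the ribosomal protein result was not tested, and in bulk tissue fewer cells of a type and less RNA per cell cannot be told apart.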

How the data were processed

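Poly(A) RNA of 9 mouse livers was sequenced with a stranded paired-end protocol, 3 mice for each of 3 groups, with groups taken from the sample labels. The authors deposited a table of raw read counts per gene for each library and, beside them, FPKM, the authors' counts scaled to row length and library depth. Tools listed in the submitters' processing notes are StringTie 2.1.6, HISAT2 2.2.1, cutadapt 1.9, edgeR and DESeq2, with the build mm10. The sources used here do not say how reads with several matches were shared. The positions in the table did not match that build, so only chromosome names were used from it.

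Genes were kept by filterByExpr (minimum count 10, minimum total 15), scaled by TMM and fitted over all 9 libraries with the quasi-likelihood test of edgeR 4.0.16 (R 4.3.3), with Benjamini-Hochberg adjustment over 18895 genes and a threshold of 0.05. SE was taken as the fold change over the square root of F. A second fit used the summed ribosomal protein counts as the library size. Library totals of 32639438 to 85060187 counts and a biological coefficient of variation of 0.664 limit the precision. Alternatives were other scalings, no filter, a minimum in every library, limma 3.58.1 on log2(FPKM + 1) and log2(FPKM + 0.1), DESeq2 1.42.0, a replicate block, and libraries left out. Leaving out the chromosome 1 copies of mitochondrial DNA and adding pseudogene counts were chosen after seeing the data. Of these steps, the edgeR fit with TMM scaling was tested on simulated counts, in OA against Cont only.

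The members and lists were chosen with earlier results of these data known. Genes named were the 5 with the smallest p in each direction and comparison, those called against the ribosomal protein sum, the 5 highest and 5 lowest by FPKM, genes of special role and restricted paralogs, and for other lists up to 3 examples by p. No libraries of a group were duplicates, as chi-square over its degrees of freedom was 35.8 to 645.4 for ribosomal protein counts of any pair. In these comparisons edgeR called no stellate marker (DESeq2 0, with 1 higher in OA and 1 lower in ZnPP+OA against OA at an unadjusted p under 0.05). It called no endothelial marker (DESeq2 1 lower in ZnPP+OA against OA, with 1 higher in OA and 2 lower in ZnPP+OA against OA unadjusted). Of 5 erythrocyte markers edgeR called 1 lower in OA and 1 higher in ZnPP+OA against OA. All 5 were lower at an unadjusted p under 0.05 both in OA and in ZnPP+OA against Cont. DESeq2 called 3 of them lower in OA, where it called 8.48% of all genes lower. Their sum was 895.7 CPM in Cont 2 and at most 279.3 CPM in any other library. Of 7 lymphocyte markers tested edgeR called none, and DESeq2 called 2 lower in OA against Cont (also 2 at an unadjusted p under 0.05).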

Additional observations from a re-analysis of the deposited data

How the results depend on the processing

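The set kept its direction in OA against Cont and in ZnPP+OA against OA under every alternative run, while the number of ribosomal protein genes called did not hold. From 6 and 4 called in these 2 comparisons, the numbers went to 13 and 18 with no filter, 13 and 20 with DESeq2, and 3 and 10 with only the 6 compared libraries. Beside these stood the shares of all genes called higher in the first comparison and lower in the second. They were 3.21% and 2.36% with no filter, 4.36% and 3.32% with DESeq2, and 1.23% and 4.11% with the 6 libraries. RLE scaling gave 3 in OA against Cont, beside 1.67% of all genes. Leaving out Cont 1 and Cont 2 together gave 0 and 15, beside 0.309% and 3.55%. Adding pseudogene counts gave 1 and 1, beside 2.4% and 1.26%. Library totals alone gave 49 and 79, where 15% of all genes were called higher and 33.4% lower, with medians of 2.17 and -2.59 and all-gene medians of 1.48 and -1.85, and in ZnPP+OA against Cont the median was -0.45. Limma gave 78 and 80 with either pseudocount, with medians of 2.32 and -2.52 on log2(FPKM + 1) and 2.38 and -2.60 on log2(FPKM + 0.1). On the first scale limma called 68.7% of all genes higher and 76.3% lower, with all-gene medians of 1.19 and -1.27, and on the second 59.8% and 64.2%, with 1.83 and -1.88. The cause of these changes was not tested.

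With 1 library left out, 1 to 6 genes were called in OA against Cont and 0 to 9 in ZnPP+OA against OA. Of all genes, 0.496% to 3.23% were called higher in the first comparison and 0.0291% to 2.7% lower in the second. Against the ribosomal protein sum the ranges were 0 to 2 and 0 to 1. That fit called 0 in OA against Cont with pseudogene counts added, and 1 in ZnPP+OA against OA with median-ratio scaling.

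The replicate numbers did not pair the samples, since correlations of same-numbered deviations ran from -0.10 to 0.014. The replicate block called 2 genes in OA against Cont, 1 in ZnPP+OA against OA and 0 against the ribosomal protein sum in OA against Cont. With TMM scaling it called 1.37% of all genes higher in OA against Cont and 0.503% lower in ZnPP+OA against OA.

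The share of ribosomal protein genes as a percent of all counts was 0.622% for Cont, 2.69% for OA and 0.451% for ZnPP+OA, 2.07% in Cont and 2.06% in ZnPP+OA with mitochondrial copies left out, and 0.838% in ZnPP+OA of the summed FPKM outside chromosome MT. Some genes that were not called changed sign. In OA against Cont, Rpl36 went to 1.45 with library totals, 0.073 with no filter, 1.60 and 1.61 with limma and 0.21 without Cont 1 and Cont 2, and ran from -0.24 to 0.17 with 1 library left out. Rpl32l, with 2 to 58 counts, went to 1.35, 0.73 and 1.52 with library totals and limma, and from -0.55 to 0.17. Between ZnPP+OA and OA, Rpl32l went to -1.49, -0.79 and -1.81 and from -0.92 to 0.72, and Rpl36 from -0.29 to 0.079. Between ZnPP+OA and Cont, Rpl7a went to -0.13 without Cont 1 and Cont 2 and -0.22 with pseudogene counts, and Rpl9 and Rpl10a to -0.016 and -0.16 with library totals.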

Other observations

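The rows of ribosomal protein pseudogenes did not follow the genes. Rpl32l, Rpl6l and Rps4l, pseudogenes counted with the genes here, are not among these rows and stood at -0.16, 1.11 and 0.56 in OA against Cont. Of 256 such rows 164 were tested, and none was called in OA against Cont (edgeR; 5 higher and 12 lower at an unadjusted p under 0.05, and DESeq2 called 10 lower). Of all genes, 11.6% were higher at an unadjusted p under 0.05, and DESeq2 called 8.48% lower. Their median log2 fold change was -0.29, beside 0.72 for the ribosomal protein genes. In ZnPP+OA against OA the median was 0.04, with none called (3 higher and 8 lower at an unadjusted p under 0.05, and DESeq2 called 2 higher and 2 lower). Of all genes, 10.2% were lower at an unadjusted p under 0.05, and DESeq2 called 5.29% higher and 3.32% lower. Summed over all rows they lay at 617.6 to 868.8 CPM in Cont and 643.9 to 823.9 CPM in OA, ranges that overlap. The pseudogene rows of Rps23 stood at 25.6 CPM in ZnPP+OA 3 and at 3.25 to 4.26 CPM in the other ZnPP+OA livers.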
